A study of Mus musculus with 13 samples.

Results

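The 10 genes described here encode nuclear receptors that bind thyroid hormone, retinoids, vitamin D or fatty acids, and they are Thra, Thrb, Rxra, Rxrb, Rxrg, Rara, Rarb, Rarg, Vdr and Ppard. They were chosen by name out of 21938 protein-coding genes, by a rule that uses no measured value but with earlier results of these data known. For each gene the listed peaks of H3K4me3 (K4) and H3K27me3 (K27) within 2 kb of any transcription start site (TSS) or inside the gene were collected in neural stem cells (NSCs), oligodendrocyte precursor cells (OPCs) and newly formed oligodendrocytes (NFOs). OLIG2 peaks of OPCs and NFOs were collected inside the gene and over the 5 kb upstream of its outermost TSS.

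The series holds ChIP-Seq libraries of both histone marks for the 3 stages, OLIG2 ChIP-Seq libraries of OPCs and NFOs, 1 OLIG2 and 1 IgG RIP-Seq library, and input DNA that was not used here. Each group is 1 library, so a difference between stages has no replicate error and was not tested. All cells were untreated. The NSCs were purchased cells from the cortex of CD-1 embryos at E14.5 and were expanded in culture with EGF and FGF, although the labels give the strain C57BL/6 to every sample. The OPCs and NFOs were not cultured. They were immunopanned from brains of C57BL/6 mice of both sexes at postnatal day 7, after plates coated with BSL-1 had removed microglia and endothelial cells, on an antibody to PDGFRα for OPCs and then on an antibody to GalC for NFOs. Culture, strain and age thus cannot be told apart from stage between NSCs and the other cells. The antibody labels of the 6 histone libraries name the opposite mark from their titles, and the titles were followed. The lists titled H3K4me3 had a peak near a TSS at 43.6 to 64.3% of protein-coding genes and those titled H3K27me3 at 9.56 to 16.4%.

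Nuclear receptors are transcription factors whose activity is switched by small lipophilic ligands. RXRs are the shared heterodimer partners of thyroid hormone receptors, retinoic acid receptors (RARs), the vitamin D receptor and PPARs, and the pairs bind direct repeats of a hexameric half-site whose spacing differs between partners. Thyroid hormone is known to drive the timing of oligodendrocyte differentiation and myelination. H3K4me3 marks active or poised promoters and H3K27me3 is laid down by Polycomb complexes at repressed ones. A gene with listed K4 peaks alone near its TSSs is called K4 only, one with K27 peaks alone K27 only, one in which every peak belongs to an overlapping pair bivalent, and any other combination mixed. A K27 peak near a TSS that overlaps a K4 peak lying farther out also counts towards mixed or bivalent, which concerned none of the 10 receptor genes.

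The following sequences are those on which the values below turn, the strongest OLIG2 peak of each gene with one past the filter of the study (fold enrichment above 5 at an FDR under 0.05) and the Rarb promoter, the only one of the receptor promoters with a direct repeat. The peaks were read from the GRCm38 genome (mm10) in the direction of transcription of the gene, 5′ to 3′, and capitals mark E-boxes (CANNTG), the hexamer that basic helix-loop-helix factors such as OLIG2 bind.
Ppard, OPC OLIG2 peak, chr17:28256778-28257007, plus strand, intron 2: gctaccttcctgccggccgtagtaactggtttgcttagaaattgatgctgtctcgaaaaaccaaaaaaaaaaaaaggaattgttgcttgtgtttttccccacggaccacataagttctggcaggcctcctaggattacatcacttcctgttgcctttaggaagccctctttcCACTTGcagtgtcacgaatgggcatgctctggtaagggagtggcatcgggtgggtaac
Rxrg, OPC OLIG2 peak, chr1:167603762-167603991, plus strand, intron 2: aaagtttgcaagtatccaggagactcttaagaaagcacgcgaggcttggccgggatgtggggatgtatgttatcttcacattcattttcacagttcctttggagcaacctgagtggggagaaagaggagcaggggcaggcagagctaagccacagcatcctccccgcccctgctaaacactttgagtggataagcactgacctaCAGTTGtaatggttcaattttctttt
Rarb, NFO OLIG2 peak, chr14:16561942-16562177, minus strand, intron 1: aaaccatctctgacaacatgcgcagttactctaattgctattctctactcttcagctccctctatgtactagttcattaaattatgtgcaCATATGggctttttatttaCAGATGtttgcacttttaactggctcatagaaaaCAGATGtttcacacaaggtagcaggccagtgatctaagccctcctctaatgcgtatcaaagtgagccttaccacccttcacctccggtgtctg
Thrb, NFO OLIG2 peak, chr14:17829853-17830088, plus strand, intron 2: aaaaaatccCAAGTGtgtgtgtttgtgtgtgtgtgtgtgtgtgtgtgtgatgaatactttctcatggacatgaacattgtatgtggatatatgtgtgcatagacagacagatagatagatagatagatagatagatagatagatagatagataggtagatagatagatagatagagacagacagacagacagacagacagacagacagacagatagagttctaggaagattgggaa
Rarb, 250 bases upstream of the TSS, chr14:16575477-16575726, minus strand, with the direct repeat in capitals: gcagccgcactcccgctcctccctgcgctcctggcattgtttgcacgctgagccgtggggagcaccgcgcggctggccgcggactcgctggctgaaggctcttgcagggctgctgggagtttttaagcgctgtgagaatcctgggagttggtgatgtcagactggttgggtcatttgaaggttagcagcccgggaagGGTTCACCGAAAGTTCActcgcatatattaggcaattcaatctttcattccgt
The Rarb promoter comes from the RefSeq promoter table (GRCm38.p6). Its capitals are 2 half-sites, GGTTCA and AGTTCA, with 5 bases between them, at -53 to -37 from the TSS. A direct repeat with this spacing is the classical response element for RAR and RXR pairs, and Rarb is a known retinoic acid target gene.

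Near their TSSs all 10 receptor genes had listed K4 peaks in NSCs and in OPCs, against 64.3% and 60.8% of all protein-coding genes, and 5 of the 10 had one in NFOs, against 43.6%. The 5 with a K4 peak in NFOs were Thra, Thrb, Rarg, Vdr and Ppard. The other 5, Rxra, Rxrb, Rxrg, Rara and Rarb, include all the RXR genes. Of the 13055 genes with a K4 peak in both NSCs and OPCs, 29.8% had none in NFOs. The NFO list also lacked K4 at most myelin genes, with a peak at 1 of 8 NFO marker genes (Cnp) and none at Mbp, Mog or Mag, so the absence of a listed K4 peak in NFOs was not limited to the receptor genes. The part of this in the missing peaks was not tested. The lists give no read depth, which limits what an absent peak can show.

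Listed K27 peaks near a TSS were found at 1 of 10 receptor genes in NSCs (Vdr), against 15.1% of all genes. They were found at 3 of 10 in OPCs and at the same 3 in NFOs, against 16.4% and 9.56%, and these were Rara, Rarb and Vdr. Of the 9 receptor genes with no K27 in NSCs, 2 had it in OPCs (Rara and Rarb), against 10.8% of all genes without K27 in NSCs. Near a TSS, overlapping K4 and K27 peaks were seen at Vdr alone, in NSCs (1 of 10 genes, against 8.58%) and in NFOs (1 of 10, against 2.9%). In OPCs they were seen at 0 of 10, against 5.45%.

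**Figure D1:**
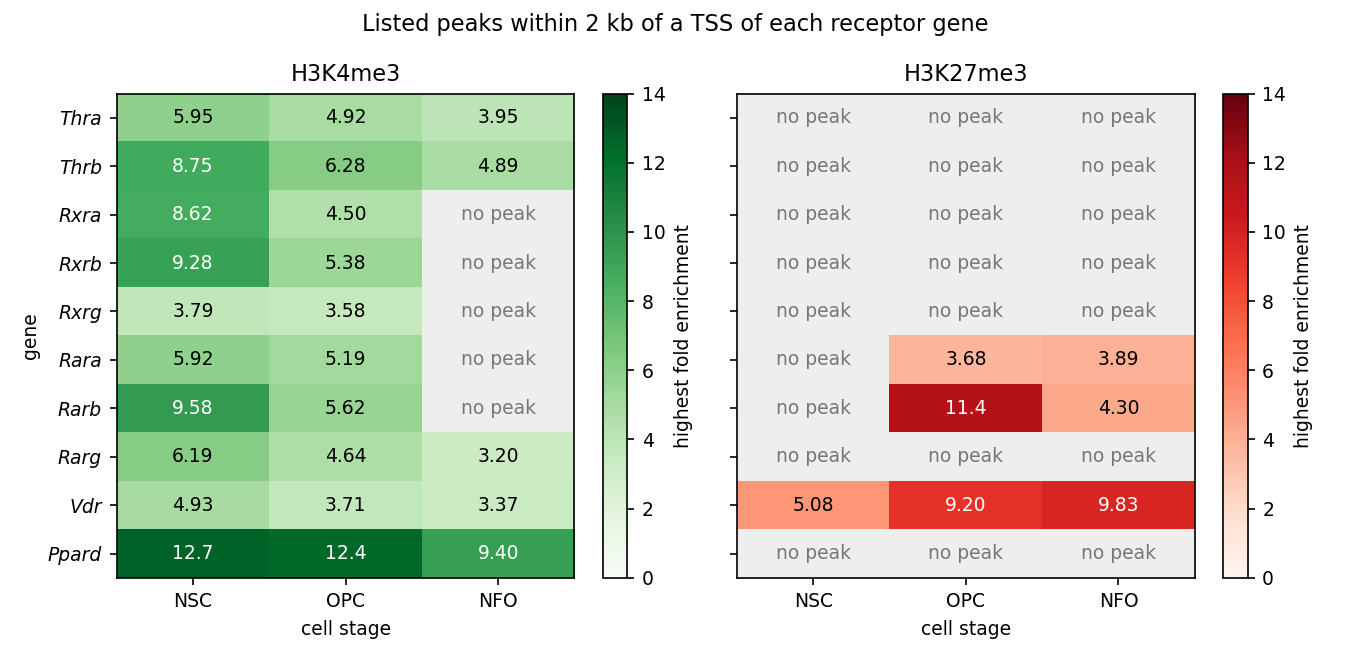
Highest fold enrichment over input of the listed H3K4me3 (left) and H3K27me3 (right) peaks within 2 kb of any TSS, for each receptor gene (rows) in NSCs, OPCs and NFOs (columns, 1 library each). Grey cells have no listed peak. K4 values run from 3.79 to 12.7 in NSCs, and K27 peaks appear at Rara, Rarb and Vdr alone.

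By the median, the K4 peaks of the receptor genes were lower than those of all genes in each stage. Among genes with a K4 peak, the highest fold enrichment over input had a median of 8.44 for NSCs, 6.50 for OPCs and 5.02 for NFOs, and over the receptor genes it was 7.41, 5.06 and 3.95. The median length of the TSS windows under K4 peaks over all genes with a peak went from 2236.5 bp in NSCs to 1400 bp in OPCs and 625 bp in NFOs, and over the receptor genes from 2898.5 to 1662.5 and 701 bp. The fold enrichment of every receptor gene was lower in OPCs than in NSCs, and lower or without a peak in NFOs, which is also the order of the medians over all genes.

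**Figure D2:**
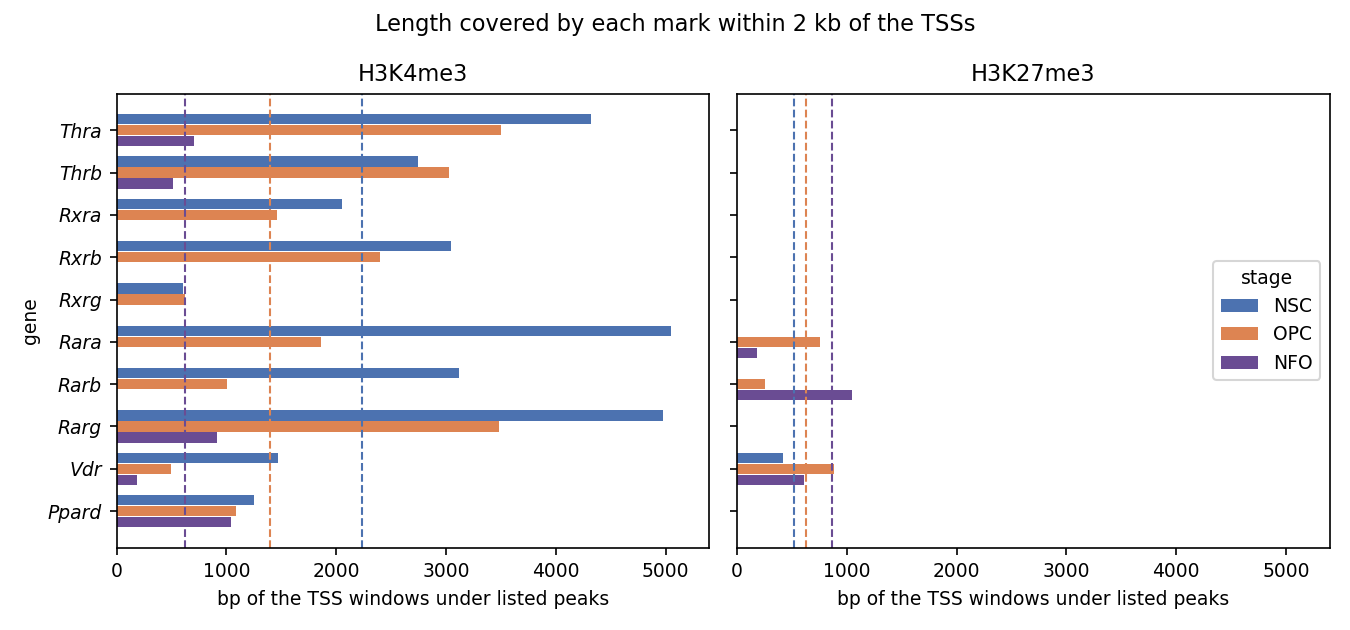
Base pairs of the windows of 2 kb around all TSSs that lie under listed H3K4me3 (left) or H3K27me3 (right) peaks, for each receptor gene and stage. Dashed lines give the median over all protein-coding genes with a peak in that stage. Rara and Rarg have the longest K4 cover in NSCs, 5048 and 4980 bp, and Ppard keeps a nearly constant 1042 to 1249 bp.

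Both thyroid hormone receptor genes were K4 only in all 3 stages, also under the filter of the study. Above a fold enrichment of 5 Thra had no mark near a TSS in OPCs and NFOs, and Thrb had none in NFOs. At the outermost TSS alone Thra had none in NFOs. At Thra, which encodes the thyroid hormone receptor α, the fold enrichment of the K4 peak went from 5.95 in NSCs to 4.92 in OPCs and 3.95 in NFOs. It covered 4319 bp in NSCs and 3502 bp in OPCs but 701 bp in NFOs, and the number of its 8 TSSs under the peak was 6, 4 and 1. At Thrb, which encodes the β receptor, the values were 8.75, 6.28 and 4.89, over 2748, 3032 and 517 bp. The NFO peak of Thrb covered none of the 6 annotated TSSs and lay 276 bp from the nearest one. Neither gene had a K27 peak near a TSS in any stage, but in NSCs Thra had 2 and Thrb 3 inside the gene.

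Of the RXR genes, all 3 were K4 only in NSCs and OPCs and had no listed peak of either mark near a TSS in NFOs. Above a fold enrichment of 5 Rxra had no mark in OPCs either, and Rxrg had none in any stage. Rxra, the widely expressed RXRα gene, had K4 at 8.62 in NSCs and 4.50 in OPCs, over 2052 and 1465 bp. Rxrb had 9.28 and 5.38, over 3049 and 2395 bp. The window of Rxrb also holds TSSs of Slc39a7, a zinc transporter gene that starts 130 bp away on the other strand, so its K4 peak cannot be assigned to Rxrb alone. Rxrg, the RXRγ gene, which is known for its part in oligodendrocyte differentiation and remyelination, had the lowest values of the 10 genes, 3.79 in NSCs and 3.58 in OPCs, over 607 and 620 bp. Inside Rxrg, over 2 kb from any TSS, lay a K27 peak of NSCs with a fold enrichment of 2.27 and 2 of OPCs with 4.73 and 3.52. NFOs had none.

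The RAR genes were K4 only in NSCs but differed among themselves afterwards. Rarg, the RARγ gene, was K4 only in each stage, and its highest fold enrichment went from 6.19 in NSCs to 4.64 in OPCs and 3.20 in NFOs over 4980, 3484 and 915 bp. The NFO peak of Rarg lay 1113 bp from the nearest TSS and is not counted under the filter of the study for histone peaks (a fold enrichment above 3.5), within 1 kb or at the outermost TSS alone, so Rarg then had no mark in NFOs. Rara and Rarb were K4 only in NSCs, mixed in OPCs and K27 only in NFOs, as shown by the map of peaks around a TSS of each gene. These states held under the filter of the study but not under all settings. Within 1 kb Rara had no mark in NFOs and Rarb was K4 only in OPCs, above a fold enrichment of 5 Rara had no K27 in any stage and Rarb none in NFOs, and at the outermost TSS alone neither gene had a mark.

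At Rarb, a K4 peak of 4400 bp with a fold enrichment of 9.58 covered the TSS of the promoter printed above in NSCs. In OPCs the K4 peak was 1002 bp long (5.62) and still covered this TSS, and in NFOs none was listed. A K27 peak of 254 bp with a fold enrichment of 11.4, the highest K27 value of the 10 genes, was listed in OPCs 1402 bp from the nearest TSS, and another of 957 bp (3.67) lay 2743 bp away, just outside the window. In NFOs the K27 peak was 1045 bp long (4.30) and lay 519 bp from the nearest TSS. The OPC peak of 254 bp and the NFO peak both lay within the stretch under K4 in NSCs, downstream of the TSS, and overlapped each other. No K27 peak was listed near this TSS in NSCs. These TSSs are internal, with the OPC K4 peak starting 243240 bp from the outermost TSS of the gene, which had no listed peak of either mark. An antisense transcript, Gm48162, starts 58 bp from a Rarb TSS and shares the K4 peak.

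At Rara, the RARα gene, 3 K4 peaks lay near TSSs in NSCs, with fold enrichments of 5.92, 3.53 and 5.12 and a cover of 5048 bp. The same 3 sites had K4 peaks in OPCs, at 5.19, 3.65 and 4.35 with a cover of 1860 bp, and none in NFOs. The middle one of the OPC peaks, at 1981 bp from a TSS, was the most distant that the window still held. K27 peaks in OPCs lay on both sides of the first K4 peak, 1913 bp long (3.68) on the upstream side and 195 bp long (3.12) downstream, the latter with a −log10 FDR of 1.12, short of the FDR limit of 0.05. The only peak of either mark in NFOs was a K27 peak of 180 bp (3.89), inside the stretch of the upstream OPC peak.

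**Figure D3:**
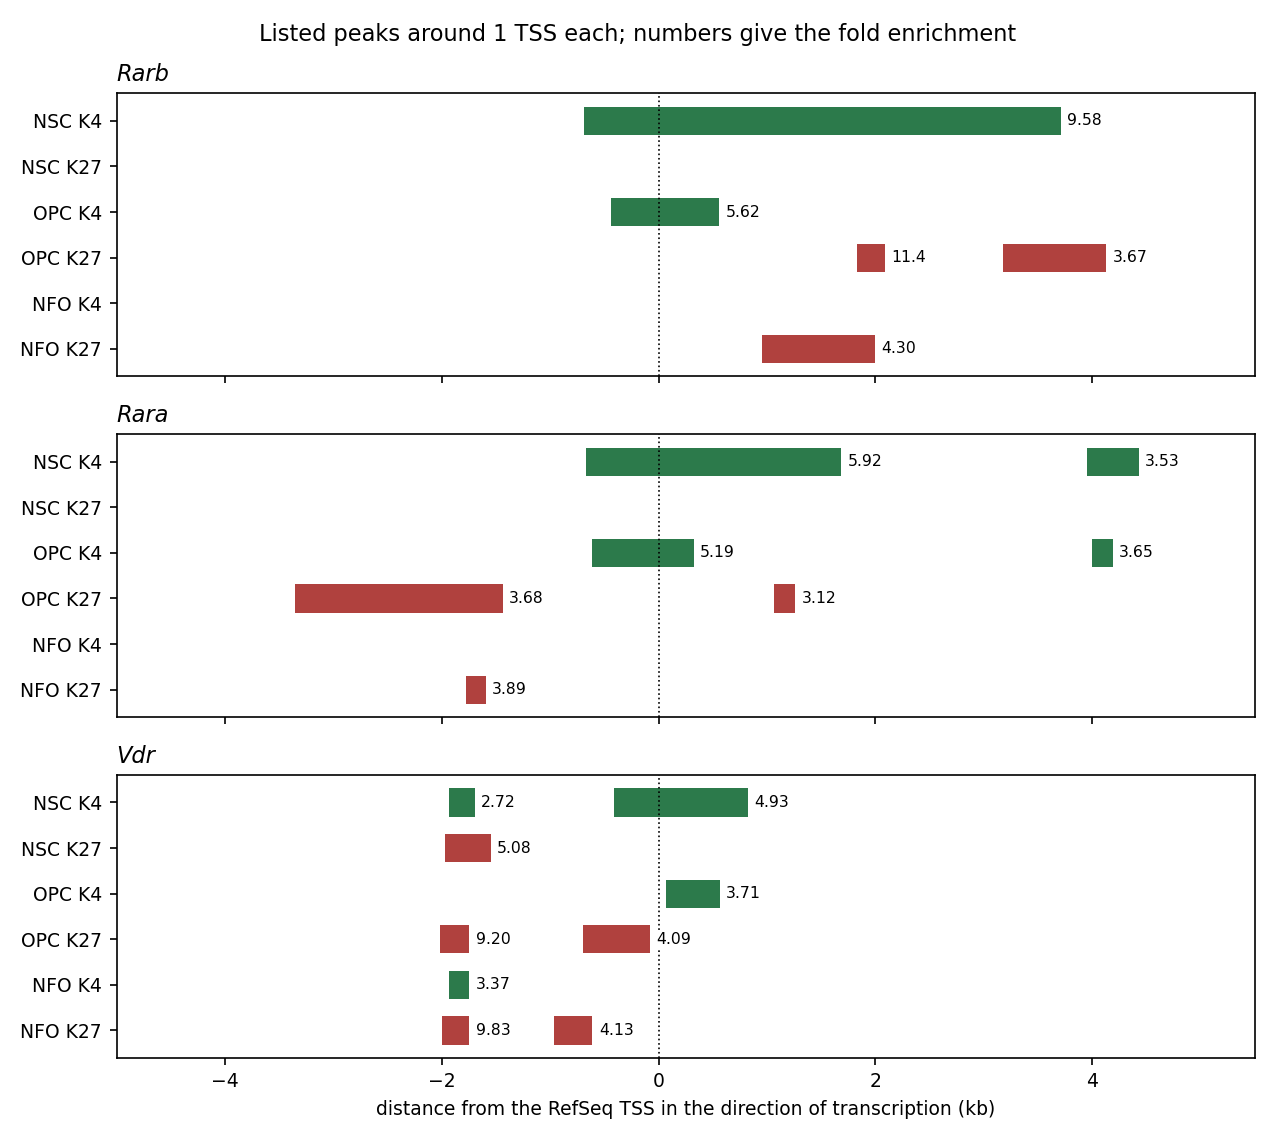
Listed peaks within 5 kb upstream and 5.5 kb downstream of 1 RefSeq TSS (dotted line) of Rarb, Rara and Vdr, by stage (rows), with H3K4me3 in green and H3K27me3 in red. The horizontal axis is the distance from the TSS in kb in the direction of transcription, and the number beside each peak is its fold enrichment. At Rarb the K27 peaks of OPCs (11.4) and NFOs (4.30) lie downstream of the TSS, where NSCs have K4, and at Vdr a narrow site upstream of the TSS has peaks in 5 of the 6 lists.

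Vdr, which encodes the vitamin D receptor, was mixed in every stage, but K27 only in NFOs under the filter of the study. Its highest K4 fold enrichment went from 4.93 in NSCs to 3.71 in OPCs and 3.37 in NFOs, with a K4 cover of 1467, 494 and 184 bp. The NSC cover came from a peak of 1232 bp (4.93) and one of 235 bp (2.72). The latter, with a −log10 FDR of 1.23, is short of the FDR limit of 0.05, and it alone overlapped K27 in NSCs. The K27 peaks of Vdr reached 5.08, 9.20 and 9.83, over 419, 888 and 614 bp. Much of this came from a narrow site of 184 to 419 bp with listed peaks in 5 of the 6 histone lists, all but the OPC K4 list, and the K27 values of 5.08, 9.20 and 9.83 and the NFO K4 value of 3.37 all belong to it. Such sites were uncommon, since 2.77 to 9.12% of the peaks of a list overlapped peaks of 5 or more histone lists. Without narrow sites of this kind Vdr was K4 only in NSCs, mixed in OPCs (K27 at 4.09) and K27 only in NFOs (4.13). No receptor gene then had overlapping marks near a TSS in any stage.

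Ppard, the gene of the fatty acid receptor PPARδ, differed least between stages. It was K4 only throughout, with the highest K4 values of the 10 genes, at 12.7 for NSCs, 12.4 for OPCs and 9.40 for NFOs. The peak covered 1249, 1084 and 1042 bp, and the number of its 9 TSSs under it was 5, 4 and 1. No K27 peak was listed at Ppard in any stage.

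Among all protein-coding genes, 52.2% (NSCs), 49.5% (OPCs) and 38.9% (NFOs) were K4 only, and the receptor genes numbered 9, 7 and 4 of 10. K27 only genes were 3.07, 4.93 and 4.53% of all genes, and 0, 0 and 2 of the receptor genes. Mixed genes were 7.09, 8.51 and 3.47% of all genes, and 1, 3 and 1 of the receptor genes. No receptor gene was bivalent by this definition in any stage, against 5.30, 2.99 and 1.56% of all genes.

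Away from the TSSs, inside the genes, 6 of 10 receptor genes had a listed K27 peak in NSCs (12 peaks), against 24.6% of all genes, 3 had one in OPCs (6 peaks), against 14.7%, and 0 in NFOs, against 6.74%. Their fold enrichments ran from 2.27 to 6.28 in NSCs and from 3.23 to 5.73 in OPCs. K4 peaks away from TSSs were found in 5 of 10 genes in NSCs, against 22.6%, 1 in OPCs, against 7.08%, and 1 in NFOs, against 10.8%. The receptor genes were long, with a median of 51.7 kb against 17.4 kb over all protein-coding genes. Per length of gene outside the TSS windows the K27 peaks numbered 11.7 per Mb in NSCs, 5.87 in OPCs and 0 in NFOs. Over all genes they numbered 12.6, 9.72 and 4.45 per Mb. The K4 peaks, 7, 1 and 2 in the same order of stages, numbered 6.85, 0.979 and 1.96 per Mb, against 9.52, 2.39 and 3.95 over all genes. By length neither mark was thus more frequent inside the receptor genes in any stage. Rarb alone held 4 of the 12 K27 peaks of NSCs, and 2 of these overlapped K4 peaks of NSCs, by 244 and 162 bp. A K27 peak of NSCs inside Thrb also overlapped a K4 peak of NSCs, by 141 bp.

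The RefSeq table held 17 promoters for 9 of the 10 genes, of 250 bases before to 50 after a TSS, and none for Thra. K4 peaks overlapped 11 of the 17 in NSCs, 10 in OPCs and 1 in NFOs, which was the Ppard promoter. K27 peaks overlapped none in NSCs, 1 in OPCs (Vdr) and none in NFOs. The ratio of observed to expected CpG was 0.335 to 1.08 in the 11 promoters under K4 in NSCs and 0.0459 to 0.602 in the other 6, against a median of 0.384 over all 32851 promoters. The half-site was searched on both strands as AGGTCA or GGTTCA and as the mixed forms of these, AGTTCA and GGGTCA, in direct repeats with a spacing of 1 to 5 bases. The repeat with 5 bases between the half-sites occurred in 32 of the 32851 promoters (0.0974%), Rarb among them, and no other promoter of a receptor gene held a direct repeat at any of the 5 spacings. These exact letters leave out divergent half-sites, so an absent match shows only that these letters are not in the window.

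OLIG2 peaks were listed at 3 of 10 receptor genes in OPCs (Rxrg, Rara and Ppard), against 16.5% of all genes. In NFOs they were listed at 4 of 10 (Thrb, Rarb, Vdr and Ppard), against 28.2%. Only Ppard had them in both stages, against 9.79% of all genes, and its peaks in OPCs and NFOs were 34.4 kb apart. Under the filter of the study, OLIG2 was left at Rxrg and Ppard in OPCs and at Thrb and Rarb in NFOs. No receptor gene then had it in both stages. The 9 listed peaks, 3 in OPCs and 6 in NFOs, all lay inside the genes and none in the 5 kb upstream. No OPC peak overlapped an NFO peak. Per length of gene and upstream region there were 2.56 OPC peaks per Mb at the receptor genes and 4.02 per Mb at all protein-coding genes, and 5.11 against 8.38 NFO peaks per Mb. The density at the receptor genes was thus below that of all genes in both stages, but it rests on 3 peaks in OPCs and 6 in NFOs. So few peaks say little about the receptor genes, and the difference was not tested. Just outside the 5 kb limit, an NFO peak with a fold enrichment of 4.88 lay 5.28 kb upstream of Thra.

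**Figure D4:**
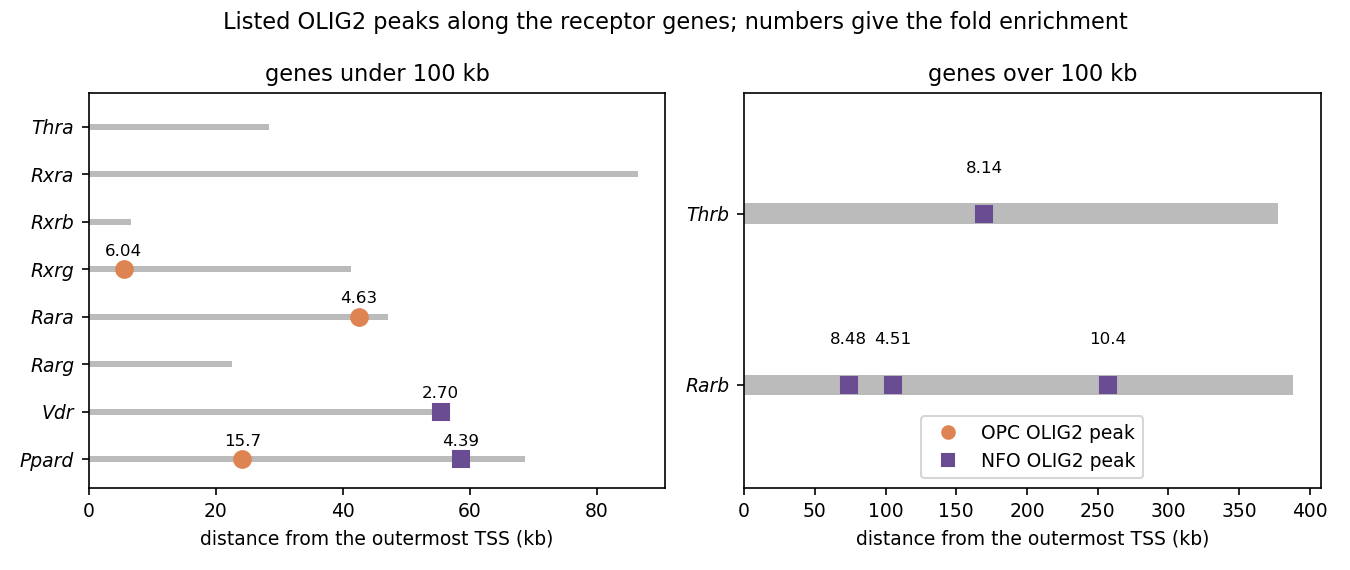
Position of the 9 listed OLIG2 peaks along the receptor genes. Grey bars run from the outermost TSS (0) to the end of the gene in kb, circles are OPC peaks, squares NFO peaks, and numbers give the fold enrichment, from 2.70 at Vdr to 15.7 at Ppard. Thra, Rxra, Rxrb and Rarg have none.

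The strongest OLIG2 peak was that of Ppard in OPCs, at 15.7-fold, which ranked 680 of the 7384 OPC peaks. It lay in intron 2, 14.8 kb from the nearest TSS, and overlapped a K4 peak of NSCs (3.22) by 173 bp. In NFOs Ppard had a peak in intron 3 with a value of 4.39. At Rxrg the OPC peak (6.04) lay in intron 2, 5.40 kb from the nearest TSS, and 227 of its 230 bp fell under the OPC K27 peak with a value of 4.73. The same stretch also lay under the NSC K27 peak of Rxrg (2.27). At Rara the OPC peak (4.63) overlapped a coding exon near the 3′ end of the gene and lay 9.98 kb from the nearest TSS.

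In NFOs, Rarb had 3 OLIG2 peaks, each in the first intron of an annotated transcript, with values of 10.4, 4.51 and 8.48. The first, 13 kb from the nearest TSS and shown above, ranked 4979 of the 16911 NFO peaks. The second, 105 kb away, overlapped both a K4 peak (3.58) and a K27 peak (4.24) of NSCs. The third, 73.7 kb away, touched a K27 peak of NSCs (4.02) by 1 bp. The NFO peak of Thrb (8.14) lay 133 kb from the nearest TSS. That of Vdr had a value of 2.70 with an FDR of 0.276, in an annotated untranslated region near the 3′ end of the gene, under an OPC K27 peak (4.03).

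Of the 9 OLIG2 peaks, 5 overlapped a peak of at least 1 histone list, and 0 overlapped a histone peak of NFOs. In OPCs this was 2 of 3 peaks, against 38.1% of all OPC OLIG2 peaks, and in NFOs 3 of 6, against 32.3%. Peaks overlapping OPC K27 were 10.5% of the OPC OLIG2 peaks and those overlapping NSC K27 15.8% of the NFO OLIG2 peaks. Those overlapping NFO K4 were 13.6% of all OPC and 8.23% of all NFO OLIG2 peaks. For NFO K27 the shares were 2.65% and 2.44%, so the 0 of 9 says little about the receptor genes.

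The Thrb peak shown above consists largely of simple repeats. Its longest uninterrupted run of a repeated unit of 4 bases was 44 bases, and 1.11% of the NFO OLIG2 peaks held a run of 44 bases or more with a unit of 1 to 4 bases. Reads from such sequence map less surely, and its part in the value was not tested. The other 8 peaks had runs of 4 to 13 bases. E-boxes were found in 8 of the 9 peaks, all but that of Vdr, against 70.5% of all OPC peaks and 69.3% of all NFO peaks of the same width. The forms CAGATG and CATCTG occurred 2 times in the Rarb peak with a value of 10.4 and 1 time in that with 4.51, and were present in 18.9% of OPC and 17.4% of NFO peaks. CAGCTG occurred in the Rara peak alone, and in 13.5% of OPC and 10.1% of NFO peaks.

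The RIP-Seq lists, of RNA sites precipitated with OLIG2 or with IgG, hold sites in Rarg transcripts alone among the 10 genes. These libraries are labelled as NFOs, whereas the methods describe the cells as NSCs. In the OLIG2 list Rarg had 5 distinct sites with 4 to 12 tags each, 32 in all, and in the IgG list 6 distinct sites with 7 to 12 tags each, 59 in all. The IgG control thus had the larger number. Sites were listed in 2.53% of protein-coding genes with OLIG2 and in 2.55% with IgG.

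Genes that act around these receptors were counted in lists by role. For comparison with each list, K4 was listed at 64.3% (NSCs), 60.8% (OPCs) and 43.6% (NFOs) of all protein-coding genes. K27 was listed at 15.1, 16.4 and 9.56%. Of 13 genes that make, carry or degrade retinoids, 9 (NSCs), 5 (OPCs) and 4 (NFOs) had a K4 peak near a TSS, and 6, 10 and 8 had a K27 peak. Cyp26a1, which degrades retinoic acid, was bivalent in NSCs (K27 at 3.94) and had K27 but no K4 within 2 kb of a TSS in OPCs (6.26) and NFOs (4.47). Aldh1a2, which makes retinoic acid, was bivalent in NSCs (4.59) and K27 only in OPCs (4.71) and NFOs (5.49). Crabp1, a binding protein of retinoic acid, was bivalent in NSCs (5.04) and likewise had K27 but no K4 there in OPCs (9.47) and NFOs (6.53). Cyp26b1 was bivalent in NSCs (4.46) and mixed, with both marks, in OPCs (4.85) and NFOs (5.48). The share with K27 in this list stood above that of all genes in every stage, as shown by the plot of list shares.

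Of 7 genes that transport, activate, degrade or respond to thyroid hormone, 4, 4 and 3 had K4 and 1, 2 and 2 had K27 from NSCs through OPCs to NFOs. Dio3, which inactivates thyroid hormone, had no peak in NSCs and was K27 only in OPCs (4.35) and NFOs (3.63). Crym, a binding protein of thyroid hormone, was K27 only in NSCs (4.22) and OPCs (3.61) and had no peak in NFOs. Hr, a known target of thyroid hormone, was K4 only in NSCs (4.74) and OPCs (4.91) and had no peak in NFOs. Both vitamin D enzymes, Cyp24a1 and Cyp27b1, were bivalent in NSCs and K27 only in OPCs (6.22 and 4.84) and NFOs (4.43 and 4.32).

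Of 10 coregulators of nuclear receptors, 10, 10 and 8 had K4 and 4, 2 and 0 had K27. OLIG2 peaks were listed at 6 of the 10 in OPCs and 9 in NFOs, against 16.5% and 28.2% of all genes. These counts were not set against the length of the genes. The corepressor gene Ncor1 was mixed in NSCs and K4 only in OPCs and NFOs, with OLIG2 peaks up to 11.9 in OPCs and 16.0 in NFOs. The coactivator genes Ncoa2 and Ep300 had the same states, and Nrip1 was bivalent in OPCs alone, with a K27 value of 2.96.

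Of 9 other receptors that pair with RXRs, 6, 6 and 4 had K4 and 2, 4 and 3 had K27. Ppara was bivalent in NSCs (K27 at 4.11), mixed in OPCs (3.32) and K27 only in NFOs (3.62). Nr4a2 was K4 only in NSCs (13.9) and mixed in OPCs and NFOs, where its K27 value was 5.71 and 4.62. Pparg was bivalent in NSCs and OPCs and mixed in NFOs. Nr1h2 had K27 in OPCs alone (4.52). Of 29 further nuclear receptors, 23, 23 and 19 had K4 and 11, 16 and 11 had K27. The share with K27 among these 29 stood above that of all genes in every stage. These receptors include Nr2f2, with a K27 value of 6.53 for NSCs, 15.3 for OPCs and 8.24 for NFOs. They also include Esrrg, which was K4 only in NSCs (9.92) and mixed in OPCs and NFOs (K27 at 9.74 and 6.21). Nr5a1 was bivalent in NSCs and K27 only in OPCs and NFOs, and Esr1 was mixed in NSCs and OPCs and K4 only in NFOs.

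**Figure D5:**
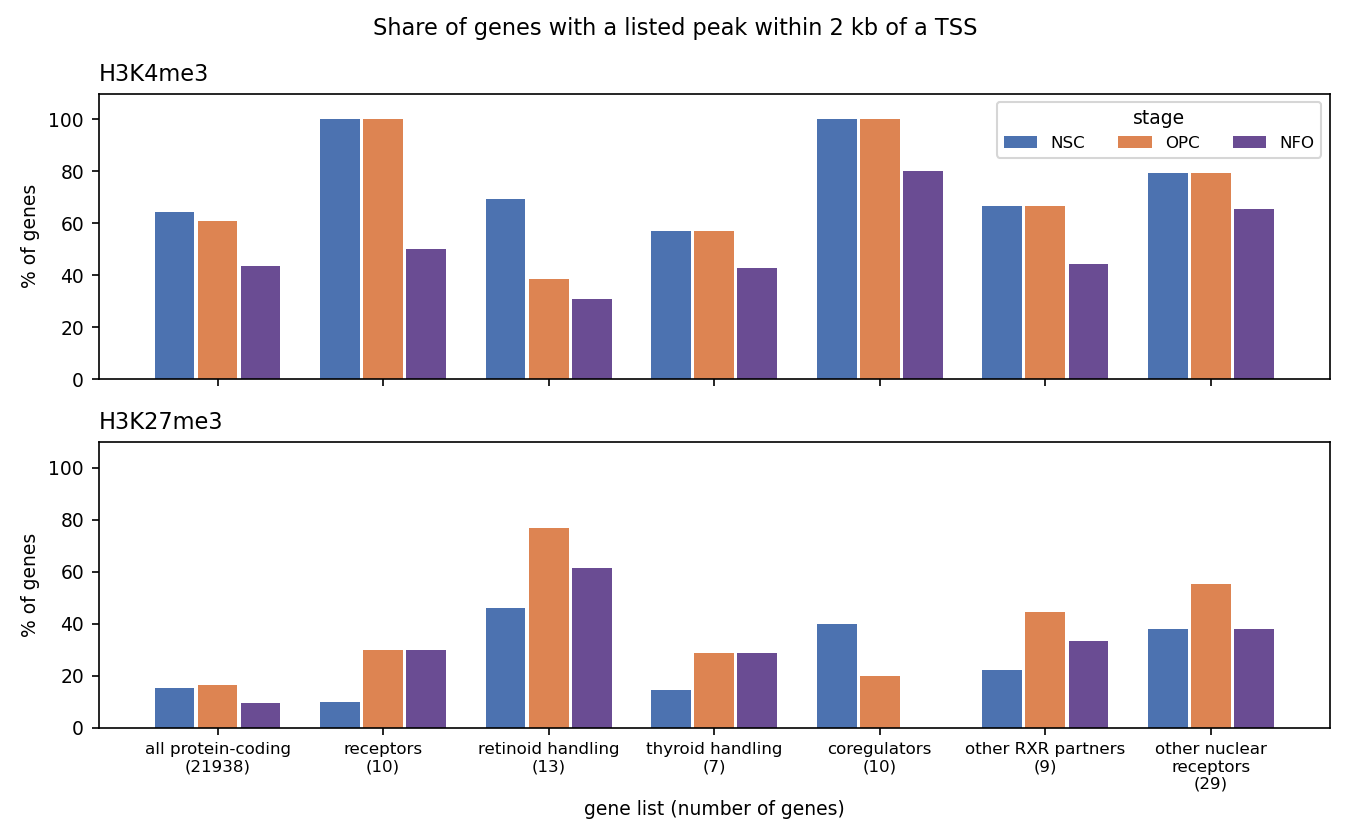
Percentage of genes with a listed H3K4me3 (top) or H3K27me3 (bottom) peak within 2 kb of any TSS, for all protein-coding genes, the 10 receptor genes and 5 lists of related genes, with 1 bar per stage. K4 stands at 10, 10 and 5 of the 10 receptor genes from NSCs through OPCs to NFOs. The genes of retinoid handling have K27 at 6, 10 and 8 of 13.

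By the lengths of K4 and K27 cover in the 3 stages (6 values on a log2 scale), the nearest of 38 other nuclear receptor genes to Rarb was Pgr, the progesterone receptor gene, at a distance of 1.98. Pgr had 1790 and 1924 bp of K4 in NSCs and OPCs and none in NFOs, and no K27 in NSCs but 589 bp for OPCs and 536 bp for NFOs. The next, Esrra and Ppara, lay at 8.05 and 8.55. The nearest to Rxrg was Nr2c1, at 2.33, followed by Nr1h2 (7.68) and Esr2 (7.94). The nearest to Thrb were Nr4a1 (0.862), Nr2f6 (1.02) and Nr1d1 (1.42), all with K4 in every stage and no K27.

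Marker genes of each stage were read in the same way. K4 was listed at 5 of 5 NSC markers in NSCs, again at 5 in OPCs, and at 3 in NFOs. Of 6 OPC markers it was listed at 5, 6 and 5, and of 8 NFO markers at 4, 4 and 1, in the same order of stages. These counts therefore did not tell the stages apart and by themselves bear out none of the labels. Single genes did differ. Gpr17 had no K4 peak in NSCs, against 6.00 for OPCs and 3.93 for NFOs. Sox10 went from bivalent in NSCs (K4 at 3.60) to K4 only, at 8.88 for OPCs and 19.2 for NFOs. Pdgfra had 3148 bp of K4 in NSCs, 8047 in OPCs and 3776 in NFOs. Other markers went the other way. Olig1 and Olig2 had their highest K4 value in NSCs, and Mbp, Myrf and Cldn11 lost K4 in NFOs. These differences were not tested. Of markers of other brain cells, K4 was listed at 0 of 6 microglial, 1 of 5 astrocyte, 4 of 5 neuronal and 1 of 4 endothelial genes in NFOs. In OPCs the numbers were 2, 1, 5 and 1, and in the cultured NSCs 1, 3, 4 and 1. Over all protein-coding genes K4 was listed at 43.6% in NFOs, 60.8% in OPCs and 64.3% in NSCs. The part of other cells in the peaks of the receptor genes was not tested.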

How the data were processed

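ChIP-Seq peaks were analysed from 8 of the 13 samples and RNA sites from 2 RIP-Seq samples, grouped by their titles, with 1 library a group. The authors mapped reads to mm10 with Bowtie2, excluded blacklisted regions, and called broad histone peaks with MACS2 and OLIG2 peaks with SPP. Versions are not given in the sources used here. The deposited lists give for each peak a fold enrichment, a ratio over the authors' control, and the −log10 of the FDR. The deposited RIP-Seq lists, made by the authors with ASPeak, give tag counts, the RPKM of the transcript and a p-value per site. Their read depth is unknown, so no interval for counting error was given.

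All listed peaks were assigned to genes of GENCODE release M21 (GRCm38) by an overlap of at least 1 bp with windows of 2 kb around every TSS, or with the gene and 5 kb upstream for OLIG2. Marks overlapping by at least 1 bp formed a bivalent domain. The assignment was tested on simulated data. Alternatives were the filter of the study, stricter fold enrichments, a TSS distance of 1 kb, an upstream distance of 2 kb, the outermost TSS alone and larger overlaps. Others, added after seeing the data, were the TSSs of coding transcripts alone and lists without peaks under 500 bp met in 5 or more histone lists. The receptor genes and all gene lists were chosen with earlier results of these data known. Of the related lists, genes whose state differed between stages were named, at most 4 a list, by their largest K27 cover, and 1 gene that this rule names is not reported here. In the lists of nuclear receptors, the 3 genes with the most similar cover to Rarb, Rxrg and Thrb were also named, by Euclidean distance of log2(bp + 1). Python 3.11.15, NumPy 2.4.6, pysam 0.24.0 and Matplotlib 3.10.9 were used. Input DNA was not used here.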

Additional observations from a re-analysis of the deposited data

How the results depend on the processing

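No paired analysis was possible because each group is 1 library, and for the same reason no replicate could be left out. Under the alternatives, 76 values moved by no more than 1.5 times and 27 by more. Counts of marks here are those near a TSS, and all counts are of the receptor genes alone. The shares over all protein-coding genes given above hold for all listed peaks. They are not given under the alternatives, which can change them too, so the counts below cannot be set against them. With the filter of the study, K4 was listed at 3 receptor genes in NFOs (5 in all listed peaks), overlapping marks at 0 in NSCs and 0 in NFOs (1 each), and OLIG2 at 2 genes in NFOs (4), with 3 peaks (6). With a fold enrichment above 5, K4 was listed at 5 genes in OPCs (10) and 1 in NFOs, K4 only genes numbered 4 in OPCs (7) and 1 in NFOs (4), K27 was listed at 1 gene in NFOs (3), 1 gene had K27 in OPCs but not in NSCs (2), and overlapping marks were at 0 in NSCs and 0 in NFOs. With an OLIG2 fold enrichment above 10, 1 gene with 1 peak was left in OPCs (3 and 3) and 1 gene with 1 peak in NFOs. A TSS distance of 1 kb left 1 gene with K27 in OPCs but not in NSCs, Rara, through a peak that misses the FDR limit of the study, since the OPC peak of Rarb lay farther away. With the outermost TSS alone, K4 was listed at 3 genes in NFOs, K4 only genes numbered 2 in NFOs, K27 was at 1 gene in OPCs and 1 in NFOs, and 0 genes had K27 in OPCs but not in NSCs, since the peaks of Rara and Rarb lie at internal TSSs. An overlap of 200 bp left 0 genes with overlapping marks in NFOs, and leaving out narrow sites left 0 in NSCs, 0 in NFOs and 0 genes with K27 in NSCs. The TSSs of coding transcripts alone, an upstream distance of 2 kb and an overlap of 50% changed none of these counts by over 1.5 times.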
